A study of Homo sapiens with 12 samples.

Results

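The comparison described here is hypoxia against normoxia in MDA-MB-231 cells that carry a short hairpin RNA against RIPOR3 (shRIPOR3). Its members were chosen by their labels and comprise 6 of the 12 RNA-seq libraries of the study, 3 from normoxia and 3 from hypoxia. MDA-MB-231 is an established human line of triple-negative breast cancer with a mesenchymal phenotype. The other 6 libraries come from the same line with a control hairpin (shControl), again 3 in normoxia and 3 in hypoxia. They serve a test of the difference in response, and they also enter the shared fit. There they take part in the gene filter, the scaling factors and the estimate of the spread behind the p-values. Hypoxic cells of either hairpin were kept for 24 h in a workstation at 1% O2 and 5% CO2, and every culture was grown in DMEM with 10% fetal bovine serum and 1% penicillin-streptomycin. All 4 groups therefore carry a hairpin, and none is the parental line without one. The labels call the shControl cells WT and the others RIPOR3 knockdown, and the study set out to examine RIPOR3 in breast tumour growth and metastasis. No source used here gives the hairpin sequence, the number of independent lines or whether replicates came from separate cultures. The p-values therefore describe the spread among these libraries alone, and that spread may be technical.

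The line's identity was checked against marker genes. Each of 9 genes of mesenchymal breast cancer lines, such as VIM, AXL and SPARC, had at least 1 CPM, a gene's count scaled to a common library size, in the shRIPOR3 libraries. Their summed level was 6490 to 6570 CPM in normoxia and 7210 to 7640 CPM in hypoxia. MSN made up most of it, at 4550 to 4660 CPM in normoxia and 4660 to 5140 CPM in hypoxia. Of the 9 genes, 3 were called higher in hypoxia and 2 lower, against 25.2% and 30.4% of all genes tested. Of 10 luminal breast markers 6 reached 1 CPM, and none of the 7 blood markers in the table did. The luminal markers summed to 1520 to 1580 CPM in normoxia and 1270 to 1330 CPM in hypoxia, mostly from KRT8 and KRT18. Endothelial markers summed to 110 to 114 CPM in normoxia and 137 to 144 CPM in hypoxia, mostly from ESAM and ROBO4. Of these 5 of 9 had 1 CPM or more, and 3 of 9 fibroblast markers reached it. The part of these levels in the results below was not tested. In bulk RNA, fewer cells with a transcript and less of it per cell cannot be told apart.

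When oxygen falls, the prolyl hydroxylases EGLN1 to EGLN3 stop marking the HIF-alpha proteins for destruction by the VHL ubiquitin ligase. HIF-1-alpha (HIF1A) and HIF-2-alpha (EPAS1) then pair with ARNT, bind DNA at a core written ACGTG and raise transcription of genes for glucose uptake, glycolysis, pH control, blood vessel growth, matrix remodelling and removal of mitochondria. In breast cancer this programme is known for its links with invasion and spread. The control of HIF-alpha is mainly at the protein level, which RNA counts do not show.

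To place the strongest responders on the genome, the stretch before the RefSeq transcription start (GRCh38.p14) was read for genes with a single listed start. A total of 7403 of the 15648 genes tested could be matched. The core ACGTG or its reverse complement CACGT occurred between 250 bases before and 50 bases after the start in 6 of 11 matched genes among the 15 largest increases (54.5%), in 1 of 7 among the 15 largest decreases (14.3%), and in 2047 of all 7403 (27.7%). Among classic HIF target genes the share was 16 of 25 (64.0%). It was 29.2% for genes higher in hypoxia and 29.9% for genes lower. Both words were counted, they overlap in CACGTG, and a match describes letters and not binding.
The 250 bases before the start are shown for 6 genes with large increases, in the direction of transcription, with each ACGTG or CACGT in capitals. PPFIA4 encodes a scaffold protein of the liprin family, ALDOC a brain-type aldolase, ANKRD37 an ankyrin-repeat protein, BHLHE40 a transcriptional repressor of the clock system, CA9 the cell-surface carbonic anhydrase IX, and RASSF4 a Ras-association domain protein. PPFIA4 lies on the plus strand with this stretch at chr1:203026241-203026490, ALDOC on the minus strand at chr17:28576896-28577145, and ANKRD37 on the plus strand at chr4:185396591-185396840. BHLHE40 has it at chr3:4979187-4979436, CA9 at chr9:35673678-35673927 and RASSF4 at chr10:44959552-44959801, all on the plus strand.
PPFIA4: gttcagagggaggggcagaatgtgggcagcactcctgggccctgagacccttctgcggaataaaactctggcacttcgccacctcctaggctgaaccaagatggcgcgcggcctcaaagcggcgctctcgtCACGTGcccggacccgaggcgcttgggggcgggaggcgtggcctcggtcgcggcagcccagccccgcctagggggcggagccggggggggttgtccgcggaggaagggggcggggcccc
ALDOC: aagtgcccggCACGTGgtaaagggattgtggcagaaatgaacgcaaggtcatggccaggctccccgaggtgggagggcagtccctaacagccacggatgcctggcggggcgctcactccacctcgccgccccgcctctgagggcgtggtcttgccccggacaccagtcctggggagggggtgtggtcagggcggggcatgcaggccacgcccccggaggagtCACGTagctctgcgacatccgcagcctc
ANKRD37: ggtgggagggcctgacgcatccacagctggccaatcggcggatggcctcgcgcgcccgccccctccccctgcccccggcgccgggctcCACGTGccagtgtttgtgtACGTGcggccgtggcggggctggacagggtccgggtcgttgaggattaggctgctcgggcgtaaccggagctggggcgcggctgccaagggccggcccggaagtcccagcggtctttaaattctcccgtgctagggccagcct
BHLHE40: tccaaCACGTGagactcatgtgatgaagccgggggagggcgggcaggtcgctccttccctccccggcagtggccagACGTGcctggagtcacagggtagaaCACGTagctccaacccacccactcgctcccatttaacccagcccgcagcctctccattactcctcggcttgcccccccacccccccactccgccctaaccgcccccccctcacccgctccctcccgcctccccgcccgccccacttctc
CA9: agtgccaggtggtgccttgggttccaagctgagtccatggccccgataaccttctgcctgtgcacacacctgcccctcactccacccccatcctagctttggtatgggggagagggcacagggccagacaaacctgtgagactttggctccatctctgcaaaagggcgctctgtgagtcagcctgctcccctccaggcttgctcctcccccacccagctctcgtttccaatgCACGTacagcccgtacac
RASSF4: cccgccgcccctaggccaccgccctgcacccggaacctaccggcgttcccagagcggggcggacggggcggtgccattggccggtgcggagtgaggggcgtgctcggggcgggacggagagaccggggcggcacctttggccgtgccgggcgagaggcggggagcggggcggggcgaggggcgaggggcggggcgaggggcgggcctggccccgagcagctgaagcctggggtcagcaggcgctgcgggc
BHLHE40 held 4 matches, ALDOC and ANKRD37 3 each, PPFIA4 2 in a single CACGTG, and CA9 1, and the RASSF4 stretch held none of these letters.

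Large changes in the hypoxic knockdown cells were almost all increases, while the balance of all calls depended on the scaling and on the libraries in the fit. Of 15648 genes tested, 8702 (55.6%) changed at an adjusted p under 0.05, with 3944 (25.2%) higher and 4758 (30.4%) lower in hypoxia, by edgeR's quasi-likelihood test with Benjamini-Hochberg adjustment. Counts of gene list members given below are to be read beside these shares of all genes. An increase of at least 2-fold was called for 501 genes (3.20%) and such a decrease for 37 (0.236%). Replicates of hypoxia and normoxia did not overlap for 9570 genes (61.2%), and the median change of all genes tested was -0.013 on the log2 scale. The share of called genes that were higher was 45.3%, and 63.4% when library totals replaced the TMM scaling factors, which moved the median by 0.123. It was 49.6% with the 6 shRIPOR3 libraries alone, and 51.2% and 51.1% without hypoxic shControl replicate 2 or 3.
Most calls were small. Among decreases 1361 were below 0.25 on the log2 scale, 2460 between 0.25 and 0.5, 900 between 0.5 and 1, and 37 between 1 and 2, with none beyond. Among increases the same classes held 792, 1327, 1324 and 462 genes, and a further 39 exceeded 2. Scarce transcripts carried many of the large changes: 271 of the 501 large increases and 32 of the 37 large decreases had a mean below 1 CPM. The median change went from 0.22 in genes below 1 CPM to -0.19 in genes above 100 CPM, on the log2 scale.

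**Figure D1:**
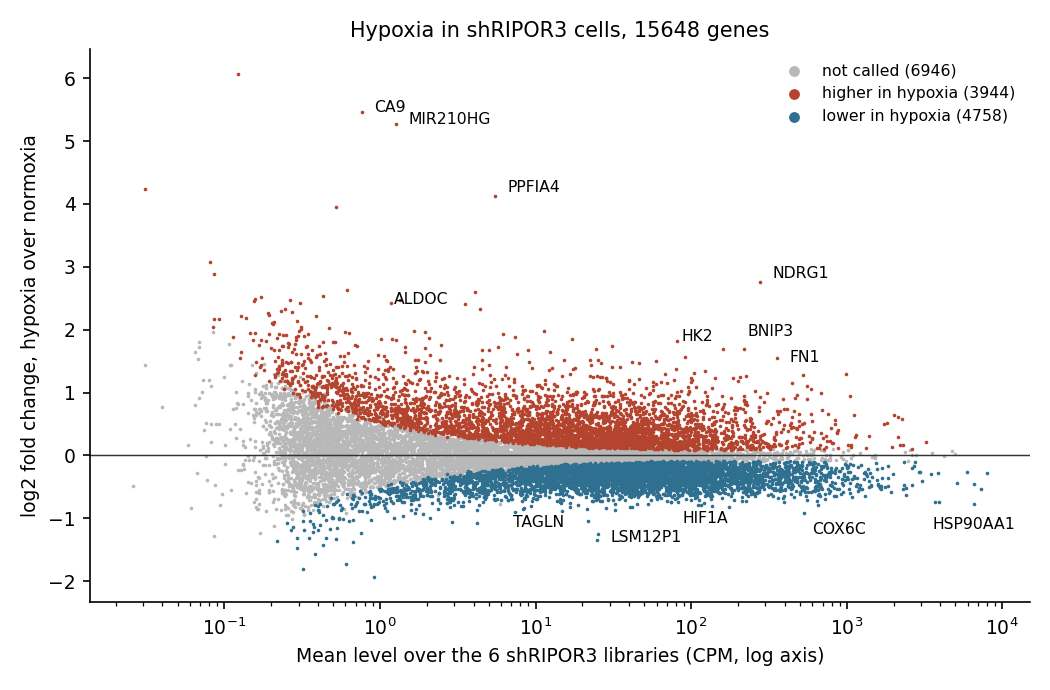
Mean level in the 6 shRIPOR3 libraries (x axis, CPM on a log scale) against the log2 fold change of hypoxia over normoxia (y axis) for the 15648 genes tested, with called genes coloured by direction. Changes beyond 2 on the log2 scale are all increases, CA9, MIR210HG, PPFIA4 and NDRG1 among them, while the decreases are many and mostly shallower than 1.

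Hypoxic libraries were deeper than normoxic ones, with 35556178 to 52526813 assigned counts against 15672143 to 30032858, and 22521 to 23289 genes detected against 20003 to 21486. Depth and oxygen move together among the 6 libraries. With every library thinned to the smallest total, 7410 genes were called, and 7225 of these were also called at full depth.

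The hairpin's target was scarce in all of these libraries. RIPOR3 (chromosome 20, 50586108 to 50691528, minus strand, GRCh38, GENCODE 29) had 0, 0 and 1 counts in the 3 normoxic shRIPOR3 libraries and 9, 3 and 11 in the hypoxic ones. Hypoxic libraries gave more counts, at a ratio of 11.3 for summed counts relative to library totals, without TMM factors. The 95% counting interval was 1.84 to 466, which covers counting error only. The control hairpin libraries held 7, 3 and 7 counts in normoxia and 33, 18 and 30 in hypoxia. Relative to library totals, shControl exceeded shRIPOR3 4.65-fold in hypoxia (interval 2.90 to 7.74). The call for RIPOR3 (edgeR adjusted p = 0.00547) was lost with every library thinned to the smallest total (log2 change 2.12, adjusted p = 0.121), its fitted log2 change went from 3.08 to 5.40 without normoxic replicate 3, and its difference between hairpins was not called (adjusted p = 0.326).
METTL3, the catalytic subunit of the complex that writes N6-methyladenosine (m6A) on RNA and the enzyme named in the study's title, fell in hypoxia. Its level was 76.6, 75.5 and 78.2 CPM in normoxia and 56.8, 58.1 and 58 CPM in hypoxia, a log2 fold change of -0.41 ± 0.0393 (SE, 3 libraries per group, edgeR adjusted p = 3.09e-09). The groups did not overlap, and METTL3 also fell with the control hairpin, at -0.51. METTL14, the partner of METTL3 in the writer complex, fell from 68.6, 76.5 and 74.3 CPM to 50.3, 54.2 and 54.1 CPM. ALKBH5, an m6A demethylase, rose from 55.9, 56.8 and 49.6 CPM to 76.8, 72.6 and 78.1 CPM, and RBM15B, an adaptor of the writer complex, rose by 0.65 on the log2 scale, or 0.37 with an offset for transcript length and GC content. Across 21 writers, readers and erasers 8 rose and 9 fell.

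The oxygen sensors moved in different directions. HIF1A (chromosome 14, 61695513 to 61748259, plus strand) fell from 100.3, 102 and 107 CPM to 59.8, 62.7 and 62.8 CPM, a log2 change of -0.74 ± 0.0393 (edgeR adjusted p = 1.45e-13). All 3 hypoxic values lay below all 3 normoxic ones. With the control hairpin HIF1A fell further, by 1.47 on the log2 scale, and the difference between hairpins was 0.73 ± 0.0549 (adjusted p = 1.49e-09). EPAS1 rose from 5.09, 5.95 and 5.85 CPM to 8.12, 8.03 and 7.85 CPM, by 0.49 in shRIPOR3 and 1.14 in shControl, the former 0.31 with an offset for transcript length and GC content. EGLN1, the main oxygen-sensing prolyl hydroxylase and itself a HIF target, rose from 8.92, 10.4 and 9.45 CPM to 25.9, 24.7 and 24.5 CPM. EGLN3 was scarce and not called (log2 change 0.82, adjusted p = 0.254). VHL rose by 0.50 and CITED2, an inhibitor of HIF's coactivator binding, by 0.57, and in all 5 of 11 genes of this list rose and 2 fell.

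Classic HIF targets formed the strongest rising group. Of 40 tested, 34 rose and 1 fell, with a median log2 change of 0.97 against -0.013 for all genes. PPFIA4 had 0.595, 0.503 and 0.665 CPM in normoxia and 11.4, 9.73 and 10.1 CPM in hypoxia, a 17.5-fold increase (log2 4.13 ± 0.145, edgeR adjusted p = 7.63e-17). NDRG1, a stress-induced growth regulator, went from 71.8, 72.6 and 70.6 CPM to 486, 471 and 493 CPM, a 6.75-fold rise. ALDOC went from 1.06, 1.14 and 1.12 CPM to 5.84, 5.64 and 6.19 CPM. The 15 largest increases and decreases were required to have groups that do not overlap, so the gap in those genes is a condition of their choice.
DDIT4, an inhibitor of mTORC1 signalling, rose from 32.7, 36.6 and 38 CPM to 127, 120.3 and 132 CPM. BNIP3, a receptor that recruits mitochondria for autophagy, rose from 97.8, 109.9 and 100.4 CPM to 325, 349.6 and 327 CPM. BHLHE40 went from 7.87, 7.55 and 6.9 CPM to 27.5, 26 and 26.5 CPM, and ANKRD37 from 3.04, 2.33 and 2.45 CPM to 10.3, 9.52 and 9.46 CPM. Exons of DDIT4 (41.2% of their length), CA9 (38.5%) and ANKRD37 (35.2%) lie opposite exons of other genes, and with the strand setting unknown their reads are uncertain. KDM3A, a histone H3 lysine 9 demethylase, rose 2.3-fold, from 59.3, 63 and 62.4 CPM to 144, 142 and 141 CPM. VEGFA, the main angiogenic growth factor, had 78.7, 81.3 and 85.7 CPM in normoxia and 166, 165 and 166 CPM in hypoxia, a 2.02-fold rise.
CA9 was nearly silent in normoxia, with 1, 1 and 0 counts, and had 89, 49 and 82 counts in hypoxia. The ratio of its summed CPM was 49.6, with a 95% counting interval of 13.6 to 412. MIR210HG, the host transcript of microRNA-210 and not on the list of 40, had 1, 1 and 2 counts in normoxia and 139, 72 and 156 in hypoxia, a ratio of 41.4 (interval 16 to 153). ANGPTL4, a secreted inhibitor of lipoprotein lipase, had 5, 10 and 14 counts against 99, 54 and 82, a ratio of 3.65 (interval 2.48 to 5.58).
Not every member followed the group. FAM162A, a mitochondrial protein known as a HIF target, had 77.3, 76 and 80.4 CPM in normoxia and 77.9, 74.8 and 79.4 CPM in hypoxia (log2 change -0.010 ± 0.0391, edgeR adjusted p = 0.843), and the groups overlapped fully. Other scalings gave it small positive values, 0.11 with library totals and 0.21 with an offset for transcript length and GC content. HILPDA, a lipid droplet protein, STC2, a secreted glycoprotein, and CA12, a second cell-surface carbonic anhydrase, were not called at -0.06, 0.21 and 0.25, though CA12 was with library totals (0.37).

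**Figure D2:**
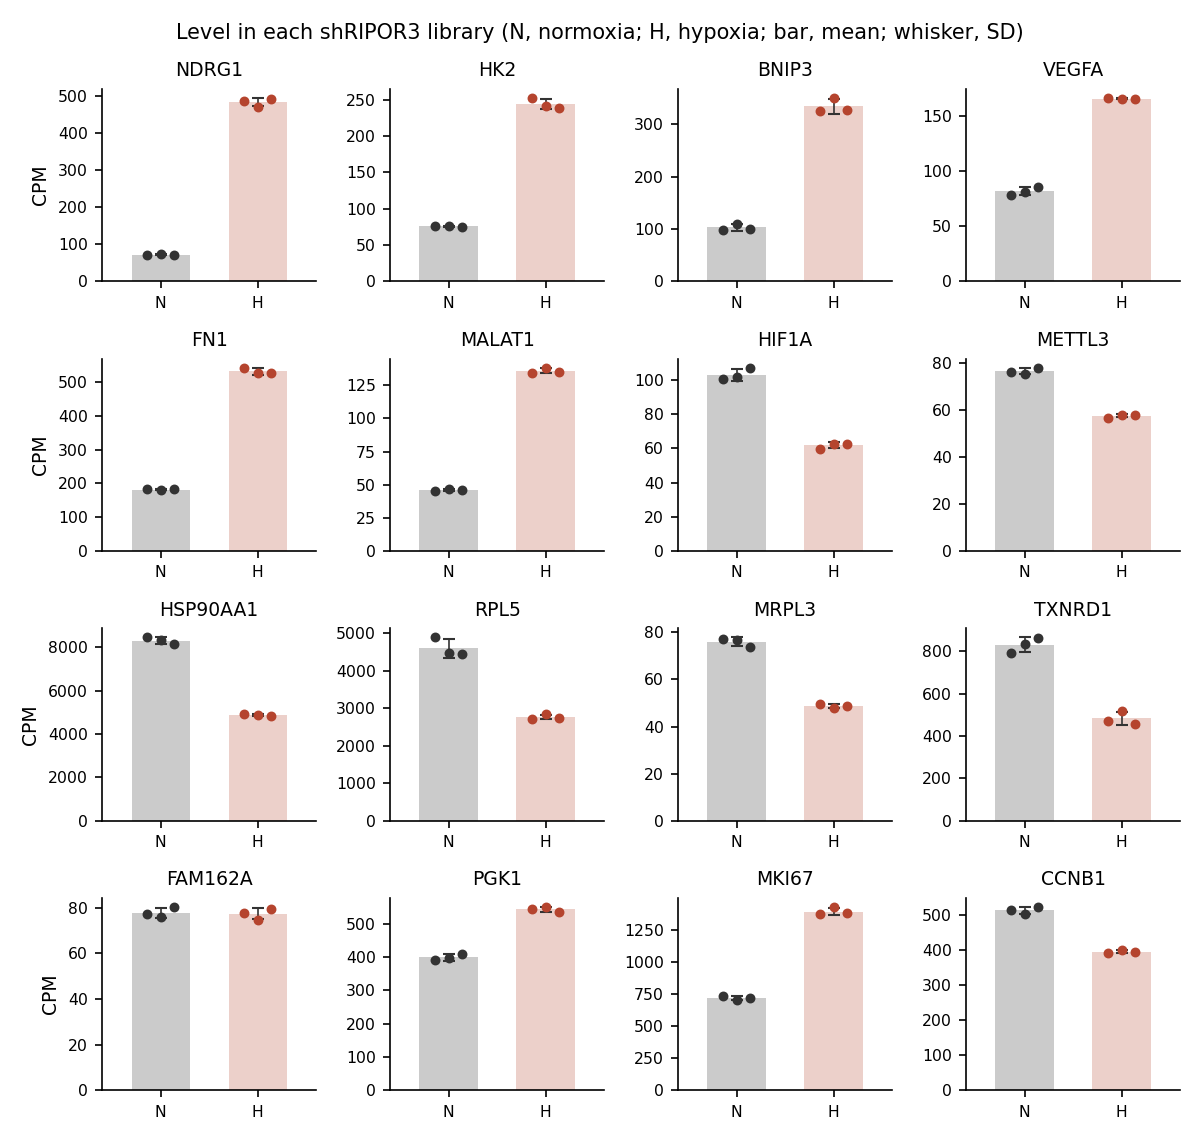
CPM (y axis, from 0) of 16 genes in the 3 normoxic (N) and 3 hypoxic (H) shRIPOR3 libraries, 1 panel per gene, with a point per library, the mean as a bar and the SD as a whisker. NDRG1 and FN1 are higher in every hypoxic library, HIF1A and METTL3 lower, and FAM162A lies between 74.8 and 80.4 CPM in all 6.

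Glucose uptake and glycolysis rose together. Of 21 transporters and enzymes 16 rose and 3 fell, with a median log2 change of 0.48. SLC2A1, the main glucose transporter GLUT1, rose from 55.9, 63 and 60.1 CPM to 142, 139.6 and 141 CPM. HK2, the hexokinase that commits glucose to the pathway, rose from 76.5, 76 and 75.4 CPM to 252, 242 and 238 CPM, a 3.22-fold increase. LDHA, which turns pyruvate into lactate, rose from 1713, 1693 and 1627 CPM to 2602, 2517 and 2596 CPM, and SLC16A3, the lactate exporter MCT4, from 48.5, 51.7 and 48.2 CPM to 94.1, 90.2 and 96.7 CPM. In SLC2A1, LDHA and SLC16A3 the groups did not overlap.
PGK1, phosphoglycerate kinase, rose by a smaller amount, from 390.4, 397 and 409 CPM to 543, 549.6 and 536 CPM (log2 0.44 ± 0.0356, edgeR adjusted p = 1.85e-10). The regulators of the pathway also moved. PFKFB4, which makes the allosteric activator of phosphofructokinase, rose from 4.43, 4.58 and 4.59 CPM to 18.1, 17.3 and 18.5 CPM, and PFKFB3, its relative, by 0.79 on the log2 scale. PDK1, a kinase that inhibits pyruvate dehydrogenase, rose from 6.48, 7.32 and 7.25 CPM to 15.1, 14 and 15.6 CPM. Its substrate subunit PDHA1 fell by 0.34, or 0.22 with library totals. AC078883.1, an RNA with exons opposite PDK1 and ITGA6 (20.3% of its exonic length), went from 1.06, 1.33 and 1.05 CPM to 6.82, 7.57 and 6.64 CPM. No source used here gives the strand setting of the counting, so its reads cannot be told apart from those of the opposite genes.
The pentose phosphate branch went the other way, with 0 of 7 genes higher and 6 lower (median -0.33).

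Mitochondrial gene groups fell broadly and by small amounts. Of 61 mitochondrial ribosomal proteins 51 fell and 0 rose, with a median log2 change of -0.36. Complex I had 27 lower and 2 higher of 36 (median -0.33), complexes III and IV 19 lower and 0 higher of 20 (-0.44), ATP synthase 13 lower and 0 higher of 15 (-0.47), and the tricarboxylic acid cycle 13 lower and 1 higher of 18 (-0.30). The 2 complex I genes counted higher were NDUFV2 and NDUFA13. Both share exon sequence with other annotated genes on the same strand (28.4% and 21% of the exonic length), as do other members of these lists such as NDUFB8 (33.8%), NDUFA7 (32.3%) and MRPL12 (68.2%), and the reads of all of them are uncertain.
COX7C, a small subunit of cytochrome c oxidase, fell from 842, 791 and 786 CPM to 509.6, 486 and 469 CPM. MRPL47, of the large mitochondrial ribosomal subunit, fell from 191, 192 and 199.6 CPM to 123, 121 and 119.8 CPM, a log2 change of -0.68 ± 0.0373 (edgeR adjusted p = 2.85e-13). SUCLG1, a subunit of succinyl-CoA ligase, fell from 171, 163 and 165 CPM to 105, 108 and 106 CPM. In each of these the hypoxic libraries lay below all normoxic ones. COX6C, another oxidase subunit, had 626, 778 and 679 CPM in normoxia and 452, 439 and 214 CPM in hypoxia, with hypoxic replicate 3 far below the other two. Its log2 change was -0.92 ± 0.153, -0.64 without that library and -0.55 with the length and GC offset described next.
Transcripts of these groups are short, with a median length of 1582 nucleotides for the mitochondrial ribosome and 1254 for complexes III and IV, against 3020 over all genes tested. With an offset for length and GC content, an alternative added after the data were seen, the mitochondrial ribosome kept 46 lower calls with a median of -0.22, and the value of MRPL47 became -0.25 and that of COX7C -0.34. Library totals reduced complex I to 21 lower and 3 higher.
The mitochondrial recycling list was mixed, with 5 of 16 higher and 9 lower. BNIP3L, a relative of BNIP3, rose from 37.9, 40.4 and 39.8 CPM to 97.1, 97.6 and 96.2 CPM, while MFN1, a mitochondrial fusion protein, fell from 105, 107 and 106 CPM to 72.1, 72.7 and 69.1 CPM.

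The extracellular matrix moved upward as a group. Of 20 collagen genes 17 rose and 1 fell, with a median log2 change of 0.79, and of 21 matrix glycoprotein genes 17 rose and 1 fell (median 0.71). FN1, fibronectin, rose from 184, 179 and 182 CPM to 542, 526 and 526 CPM, a 2.93-fold increase (log2 1.55 ± 0.0381, edgeR adjusted p = 2.07e-19). COL7A1, the anchoring fibril collagen, rose from 10.4, 12.6 and 11.6 CPM to 37.8, 36.7 and 38.4 CPM, and COL4A1, of basement membranes, from 121, 122 and 126 CPM to 291, 293 and 289.7 CPM. THBS1, thrombospondin 1, rose from 133, 134 and 129.9 CPM to 321, 315 and 316 CPM. In FN1, COL4A1 and THBS1 the groups did not overlap.
Enzymes that modify collagen rose in 14 of 19 cases and fell in 1. LOX, the enzyme that crosslinks collagen, rose from 6.02, 6.31 and 6.86 CPM to 14.9, 13.3 and 13.6 CPM, PLOD2, a lysyl hydroxylase, from 38.9, 40.8 and 41.6 CPM to 74.6, 71.3 and 72.6 CPM, and P4HA1, a prolyl hydroxylase subunit, by 0.83 on the log2 scale. Collagen and matrix glycoprotein transcripts are long, with median lengths of 6540 and 7394 nucleotides. With the length and GC offset 13 collagens rose (median 0.62) and 16 matrix glycoprotein genes did (median 0.44).
Signalling groups tied to matrix and shape were mostly higher. Of 29 genes of TGF-beta signalling 21 rose and 4 fell, among them LTBP2, a matrix protein of the latent TGF-beta binding family, from 12.3, 10.3 and 12.1 CPM to 33.7, 32.9 and 33.1 CPM. Of 21 YAP and TEAD target or pathway genes 16 rose and 2 fell. CTGF, a matricellular YAP target, rose from 305, 307 and 309 CPM to 747, 738 and 747 CPM, but ANKRD1, another well-known YAP target, fell from 4994, 5007 and 4706 CPM to 2944, 2926 and 2956 CPM. Contractile genes were mixed, with 7 of 23 higher and 10 lower, and their median of -0.11 became 0.012 with library totals. TAGLN, the actin-binding protein transgelin, fell from 27, 29.2 and 31.8 CPM to 14.5, 13.8 and 14.6 CPM, 2.06-fold lower (log2 -1.04 ± 0.063, edgeR adjusted p = 1.35e-12).
Markers of the mesenchymal state did not move as a block, with 5 of 12 higher and 4 lower. VIM rose from 427, 404 and 401 CPM to 536, 550.2 and 564 CPM, whereas ZEB1, a repressor of epithelial genes, fell from 161, 172 and 165 CPM to 136, 144 and 133 CPM, a log2 change of -0.27 that was -0.15 with library totals. Epithelial genes had 4 of 22 higher and 6 lower, against 25.2% and 30.4% of all genes tested. Among 22 proteases and inhibitors 13 rose and 3 fell, and MMP1, interstitial collagenase, was lower, with 3874, 3751 and 3832 CPM in normoxia and 3208, 3150.2 and 3022 CPM in hypoxia. That call was lost with the length and GC offset (log2 -0.29 against -0.052).

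Growth factor signalling was mixed by family. Of 17 genes of the EGFR family, its ligands and inhibitors 6 rose and 3 fell (median log2 change 0.027). Of 11 genes of the insulin and IGF axis 7 rose and 1 fell (median 0.31). Transcripts of this axis are long, with a median length of 6215 nucleotides against 3020 over all genes tested. All genes tested had 25.2% higher and 30.4% lower. EGFR itself rose and had 209, 197 and 209 CPM in normoxia and 413, 410.0 and 402 CPM in hypoxia. IRS2, the insulin receptor substrate, rose from 14.9, 14.6 and 13.3 CPM to 46.3, 46.9 and 49.1 CPM, a 3.35-fold increase. IGF1R rose from 14.1, 14.4 and 15.1 CPM to 33.9, 34.8 and 36.5 CPM and INSR, the insulin receptor, from 3.83, 3.25 and 2.8 CPM to 6.95, 7.81 and 7.65 CPM. In EGFR, IGF1R and INSR every hypoxic library exceeded every normoxic one. FGF1, a fibroblast growth factor, was among the largest decreases, from 19, 19.9 and 18.3 CPM to 10.2, 9.98 and 10.8 CPM.
Early response genes were higher in 11 of 19 cases and lower in 2, with JUN up from 146, 147 and 148 CPM to 248, 246 and 251 CPM. Feedback regulators of ERK signalling were higher in 15 of 20 and lower in 2. Among them the phosphatase DUSP6 rose from 20.8, 16.2 and 17.2 CPM to 27.3, 25.2 and 25.5 CPM. Exons of DUSP6 lie opposite those of another gene over 40.5% of their length, and with the strand setting unknown its reads are uncertain. Of 22 angiogenic genes 13 rose and 3 fell.
ULK1, the kinase that starts autophagy, rose from 2.45, 2.43 and 2.77 CPM to 5.26, 5.12 and 5.29 CPM, and CCNG2, an unusual cyclin associated with arrest, from 3.7, 4.21 and 4.83 CPM to 9.5, 8.43 and 9.83 CPM. VLDLR, a lipoprotein receptor, rose from 4.23, 4.3 and 4.27 CPM to 14.1, 13.7 and 13.3 CPM.

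The machinery that makes and folds proteins fell. Of 77 cytoplasmic ribosomal proteins 72 fell and 1 rose, with a median log2 change of -0.46. RPL5 fell from 4889.8, 4475 and 4436 CPM to 2712, 2839 and 2745 CPM (log2 -0.73 ± 0.0436, edgeR adjusted p = 1.04e-12). Translation factors had 30 of 43 lower and 6 higher, led downward by EIF2B3, a subunit of the exchange factor for eIF2, from 53.9, 52.4 and 52.9 CPM to 29.7, 29.8 and 30.2 CPM. Among 38 ribosome biogenesis genes 23 fell and 8 rose, a smaller majority that became 21 and 13 with library totals. GAS5 and ZFAS1, non-coding hosts of small nucleolar RNAs, fell by 0.61 and 0.77.
All 28 proteasome genes that were called, of 30, fell (median -0.38), as did 16 of 26 chaperones against 3 that rose. HSP90AA1, the inducible HSP90, fell from 8463, 8321 and 8175 CPM to 4904, 4879 and 4826 CPM, and CHORDC1, an HSP90 co-chaperone, from 237, 221 and 219 CPM to 125, 129 and 129 CPM. HSPA1A and HSPA1B, the stress-induced HSP70 genes, stood apart, but they are near-identical copies and their reads are uncertain. HSPA1A had 24.5, 25.9 and 25.5 CPM in normoxia and 62.9, 43.2 and 42.9 CPM in hypoxia, with the first hypoxic library highest. BAG3, a co-chaperone of HSP70, rose from 177, 184 and 178 CPM to 266, 255 and 269 CPM.
Ribosomal protein and proteasome transcripts are short as well, with medians of 1170 and 1586 nucleotides. With the length and GC offset 70 ribosomal proteins were lower and 4 higher (median -0.33), 27 proteasome genes were lower (-0.27), and RPL5 stood at -0.48.

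Genes of the cell cycle were lower more often than higher, by small amounts. Of 30 G2 and M phase genes 19 fell and 4 rose (median -0.22), and of 40 replication genes 25 fell and 10 rose (median -0.14), against 13 lower and 6 higher and 14 lower and 11 higher with library totals. CCNB1, cyclin B1, fell from 516, 505 and 523 CPM to 391, 400.1 and 396 CPM, and RRM1, of ribonucleotide reductase, from 632, 652 and 661 CPM to 438, 439 and 430.2 CPM. MKI67, whose protein is the usual proliferation marker, rose instead, from 733, 705 and 721 CPM to 1369, 1425 and 1377 CPM. Its transcript is long, and its value with the length and GC offset was 0.68 against 0.95. The fall of CCNB1 was -0.38, and -0.16 with that offset, and the fall of CDK1 (-0.47) was not called with it (-0.093). Homologous recombination and mismatch repair genes had 14 of 21 lower and 4 higher.
Chromatin genes included many that depend on oxygen. Of 21 histone and DNA demethylases 17 rose and 2 fell, with TET3, which oxidises methylcytosine, up from 9.12, 9.52 and 10.7 CPM to 27, 26.7 and 24.2 CPM and KDM4B from 17, 19.6 and 17.6 CPM to 34, 35.4 and 35.9 CPM. Transcripts of the demethylase list are long, with a median length of 6096 nucleotides against 3020 over all genes tested. Of 14 histone genes that passed the filter on low counts, 7 rose and 2 fell. HIST1H2BC rose from 0.992, 1.05 and 0.805 CPM to 1.93, 2.06 and 1.85 CPM. Of 26 long non-coding RNAs and host genes of small nucleolar RNAs 9 rose and 7 fell (median log2 change 0.0069). Over all genes tested 25.2% rose and 30.4% fell. MALAT1 went from 45.2, 46.4 and 45.6 CPM to 134, 138 and 135 CPM and NEAT1, the scaffold of paraspeckles, from 19.1, 19.2 and 20.6 CPM to 42.8, 46.9 and 41 CPM.
Of 25 antioxidant genes under NRF2, 18 fell and 1 rose. TXNRD1, thioredoxin reductase, fell from 793, 835 and 862 CPM to 472, 517 and 458 CPM, and NQO1, a quinone reductase, from 238, 232 and 235 CPM to 142, 145 and 146 CPM. With the length and GC offset 12 of these genes were lower. Interferon-stimulated genes were lower in 18 of 30 and higher in 3, but 10 were lower with library totals and 13 with the offset. IFIT1 among them fell from 11.4, 10.4 and 11.8 CPM to 7.79, 7.76 and 8.14 CPM. Cholesterol synthesis and uptake genes split, with 10 of 27 higher and 9 lower. ABCA1, a cholesterol exporter, rose from 2.12, 2.24 and 1.93 CPM to 4.78, 4.88 and 4.79 CPM, whereas HMGCS1, of the synthesis pathway, had 42.4, 45 and 42.2 CPM in normoxia and 43.8, 45 and 44 CPM in hypoxia and was not called (log2 0.034, edgeR adjusted p = 0.508), but it was called higher with library totals (0.16) and with the offset (0.23).

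**Figure D3:**
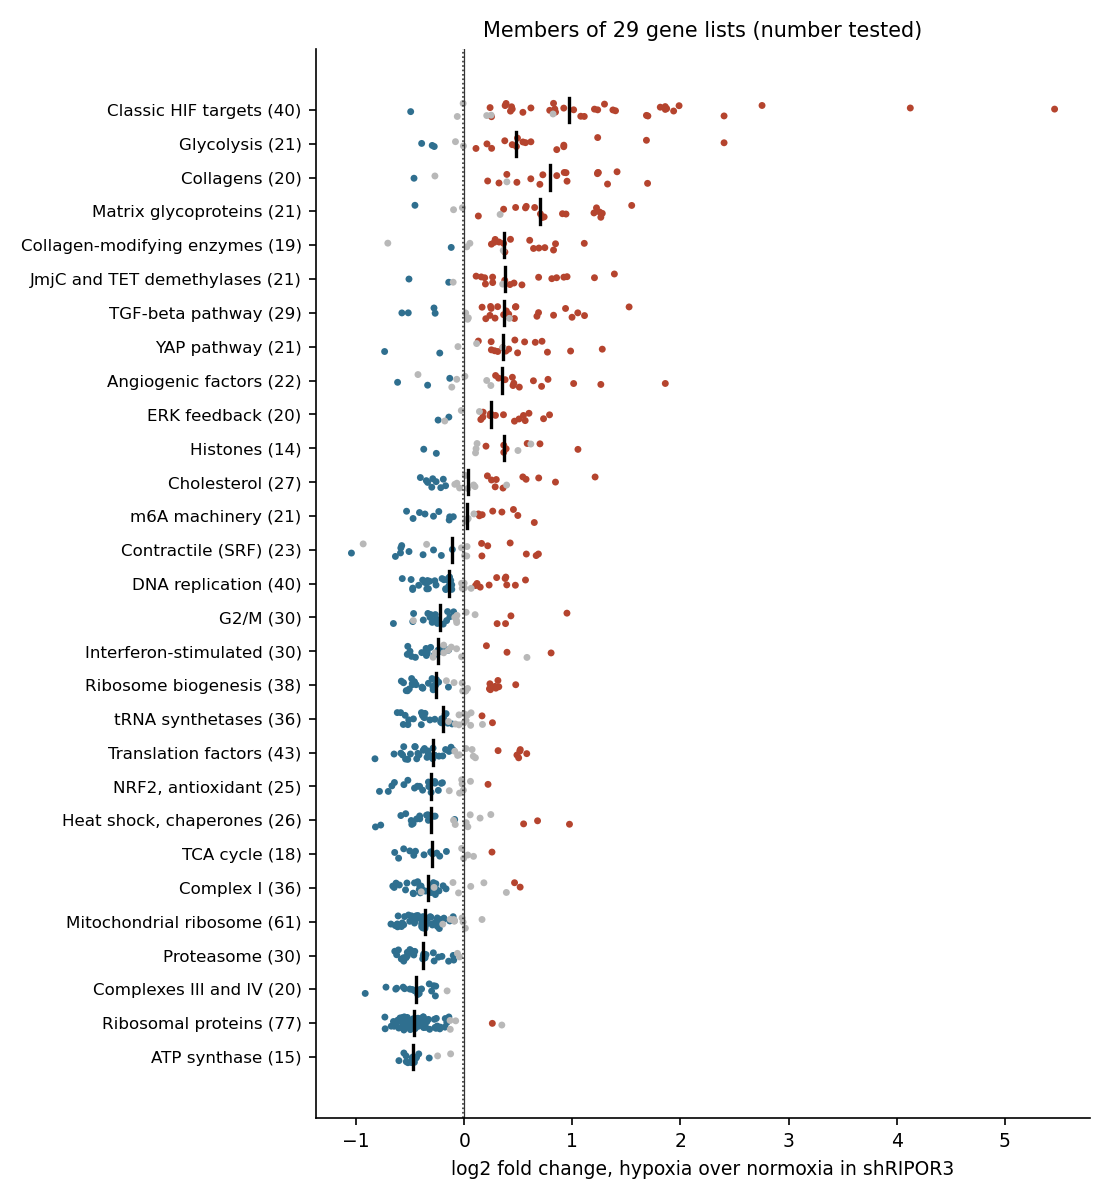
Log2 fold change of hypoxia over normoxia in shRIPOR3 (x axis) for each member of 29 gene lists (y axis, number tested in brackets), with genes called higher in red, called lower in blue, not called in grey, the list median as a black bar and the median of all genes as a dotted line. Classic HIF targets, collagens and matrix glycoproteins have medians of 0.97, 0.79 and 0.71, and the ribosomal protein and ATP synthase lists of -0.46 and -0.47.

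The largest decreases were a mixed set. FP236383.3, a long non-coding RNA gene on chromosome 21 (8437629 to 8438551, minus strand), fell 2.54-fold, from 36.1, 30.4 and 40.7 CPM to 12.6, 14 and 15.7 CPM, and LSM12P1, a processed pseudogene whose reads may belong to its parent gene, fell 2.38-fold. ANKRD29, an ankyrin-repeat protein, fell from 5.35, 6.31 and 5.53 CPM to 2.49, 2.96 and 2.76 CPM. ACOT13, a mitochondrial thioesterase, fell from 39.2, 41.1 and 44.2 CPM to 22.6, 22.6 and 23.7 CPM and SLC25A12, the mitochondrial aspartate-glutamate carrier, from 27.5, 26.6 and 28.8 CPM to 16.1, 15.4 and 14.7 CPM. BOLA2B, which has a near-identical copy, rested on normoxic replicate 3, with 6.87, 7.55 and 17.1 CPM in normoxia and 5.61, 6.78 and 6.41 CPM in hypoxia, and was not called without it (log2 -0.22 against -0.84).

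The response of the knockdown cells resembled that of the control-hairpin cells in direction and was smaller for most genes that changed with both. The 2 comparisons share no library but come from the same fit. Spearman's rho between the changes was 0.833 over the 12314 genes with a transcript length and a mean of at least 1 CPM in shRIPOR3. Genes are not independent, and scarcer ones were left out of that value. Of the 15648 genes tested, 3203 were higher with both hairpins and 3850 lower with both. Among those 7053 genes, 4991 (70.8%) changed less in shRIPOR3 than in shControl, and the median ratio of the sizes was 0.798. The test of the difference itself, edgeR's interaction term, called 3624 genes (23.2%), with 1704 (10.9%) more positive and 1920 (12.3%) more negative in shRIPOR3. Of the 1914 called among the genes that moved the same way with both hairpins, 1699 changed less and 215 did not.
For 9 of the 64 lists, picked by hand, the ratio of the sizes was taken over every member tested, whether called or not and whatever its direction. Lists outside these 9 went both ways. NRF2 antioxidant genes had a larger median fall in shRIPOR3 (-0.31 against -0.24 in shControl). Early response genes had a smaller median rise (0.25 against 0.78). Among the 9 lists the mitochondrial ribosome, classic HIF targets and cholesterol genes had the lowest median ratios, 0.604, 0.634 and 0.635. The ratio ignores direction, and MSMO1 of the cholesterol list moved in opposite directions with the 2 hairpins. Classic HIF targets had a median of 0.97 in shRIPOR3 and 1.66 in shControl, 38 of 40 had the smaller change in shRIPOR3, and the difference was called for 35 of 40, each more negative in shRIPOR3. In the mitochondrial ribosome 59 of 61 changed less, with medians of -0.36 and -0.60 and 38 differences called more positive against 1 more negative. Proteasome genes changed less in 29 of 30 cases and glycolysis genes in 19 of 21. The share with the smaller change was not taken over all genes tested. The 70.8% above covers only genes called the same way with both hairpins. Cytoplasmic ribosomal proteins had closer medians, -0.46 and -0.52, with 11 differences called of 77, and collagens had 12 of 20 with the smaller change and 7 called.
The strongest rising genes differed in the same way. NDRG1 rose by 2.75 in shRIPOR3 and 3.56 in shControl, a difference of -0.81 ± 0.0542 on the log2 scale (edgeR adjusted p = 2.00e-10), and its shControl levels were 167 CPM ± 5.00 (SD, n = 3) in normoxia and 1972 ± 30.7 in hypoxia. HK2 differed by -0.68, VEGFA by -0.70 and PGK1 by -0.81. PPFIA4 (difference -0.61 ± 0.267, adjusted p = 0.111), CA9 (-1.36 ± 1.09, adjusted p = 0.517), ANKRD37 (-0.10, adjusted p = 0.702) and the antisense RNA FLG-AS1 (-0.0042, adjusted p = 0.990) did not pass that test. HSP90AA1 fell by 0.77 and 0.98, and RPL5 by 0.73 and 0.70, where the difference of -0.03 was not called (adjusted p = 0.744).
FAM162A differed by -1.25 ± 0.0566 (edgeR adjusted p = 3.14e-13), and with the control hairpin it rose from 48.8 CPM ± 1.63 to 115 ± 2.71 (SD, n = 3). IGFBP3, which binds insulin-like growth factors, differed by -1.78 ± 0.0537 (adjusted p = 6.62e-17). It had 65.4, 68.3 and 64.8 CPM in normoxia and 74.5, 75.4 and 76.4 CPM in hypoxia in shRIPOR3, against 46.4 ± 0.696 and 182 ± 3.85 in shControl. Its log2 change in shRIPOR3 was 0.19, or 0.31 with library totals. LOX differed by -1.88 and DUSP1, a phosphatase of MAP kinases, by -1.38. LOX had 2.85 CPM ± 1.06 in normoxia and 24 ± 0.342 in hypoxia in shControl. DUSP1 had 56.8, 72.9 and 62 CPM in normoxic shRIPOR3 libraries and 26.1 ± 1.72 in shControl, and 77.4, 76.8 and 74.9 against 81.5 ± 4.75 in hypoxia.

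**Figure D4:**
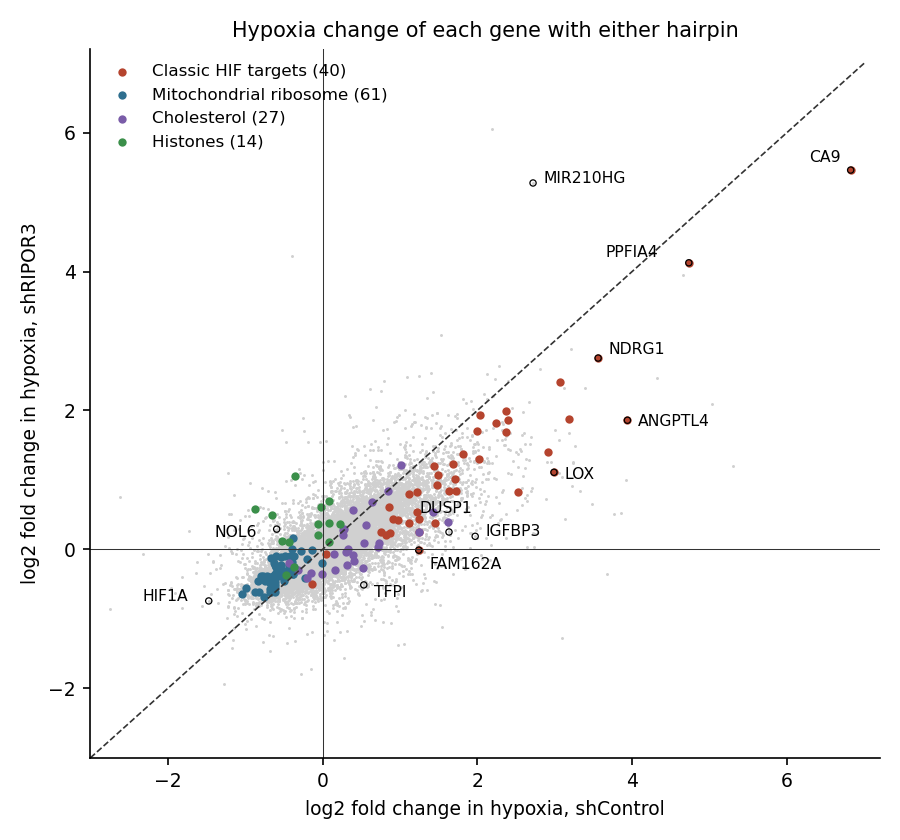
Log2 fold change of hypoxia over normoxia in shControl (x axis) against shRIPOR3 (y axis) for the genes tested, with 4 gene lists coloured and the dashed line of equal change. Classic HIF targets lie mostly below the line, at the medians of 1.66 and 0.97, and MIR210HG lies above it.

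A small set of genes moved in opposite directions. In all, 79 genes were higher in hypoxia with shRIPOR3 and lower with shControl, and 112 were lower with shRIPOR3 and higher with shControl. NOL6, a nucleolar protein of ribosome biogenesis, rose from 180.3, 188 and 187 CPM to 231, 219 and 229 CPM in shRIPOR3 and fell from 163 ± 4.42 to 108 ± 4.03 CPM in shControl (difference 0.89 ± 0.0543, edgeR adjusted p = 5.55e-11). With the length and GC offset its rise in shRIPOR3 was 0.12 in place of 0.29. MMP1 was lower in shRIPOR3, a call that was lost with the same offset (log2 -0.052, adjusted p = 0.222), and rose in shControl from 1045 ± 17.2 to 1679 ± 35.3 CPM. TFPI, an inhibitor of blood clotting, had 13.5, 13.6 and 13.7 CPM in normoxia and 9.93, 9.17 and 9.5 CPM in hypoxia in shRIPOR3, and 20.6 ± 0.856 and 29.7 ± 1.05 CPM in shControl. Its log2 change in shRIPOR3 was -0.51, or -0.24 with that offset. SLC16A1, the lactate transporter MCT1, was lower in hypoxia in shRIPOR3 (log2 -0.30, adjusted p = 0.0135, 0.0708 with DESeq2) and higher in shControl (0.64), and the difference was called at -0.94 (adjusted p = 0.000728).
Histone genes had a median change of 0.37 in shRIPOR3, with 7 of 14 higher, and -0.21 in shControl, with 1 higher and 5 lower, and 6 of the differences were called, each more positive in shRIPOR3. HIST1H2BC differed by 1.41 ± 0.344 (edgeR adjusted p = 0.00394). In cholesterol genes the medians were 0.034 and 0.40, with 22 of 27 higher in shControl and 10 in shRIPOR3, and 16 differences were called more negative. MSMO1, a sterol demethylation enzyme, was lower in shRIPOR3 (-0.26) and higher in shControl (0.52), although with the length and GC offset its shRIPOR3 value was 0.062 and not called.

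Transcript length and GC content moved with the response in these libraries. Over 12314 genes with at least 1 CPM, taking the longest annotated transcript of each, the median log2 change went from -0.28 in transcripts under 1000 nucleotides to 0.19 in those over 8000, and the share called higher went from 8.9% to 52.3%. By GC content the median went from -0.22 in transcripts under 40% to 0.12 in those at 60% or more. Spearman's rho with the log2 change was 0.333 for length and 0.333 for GC content over genes, and in shControl it was 0.351 and 0.146. Among gene types, antisense RNAs had a median of 0.24 at a median level of 0.669 CPM, close to the 0.22 of all genes below 1 CPM, and protein-coding genes a median of -0.029. Of 656 antisense RNAs 137 (20.9%, against 25.2% of all genes) were higher and 38 lower, and their reads cannot be told apart from those of the opposite genes. The part of length and GC content in the results was not tested beyond the offset, under which 7805 genes were called, 6476 of them also called without it, and classic HIF targets had 35 higher and 1 lower of 40 with a median of 1.03.

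**Figure D5:**
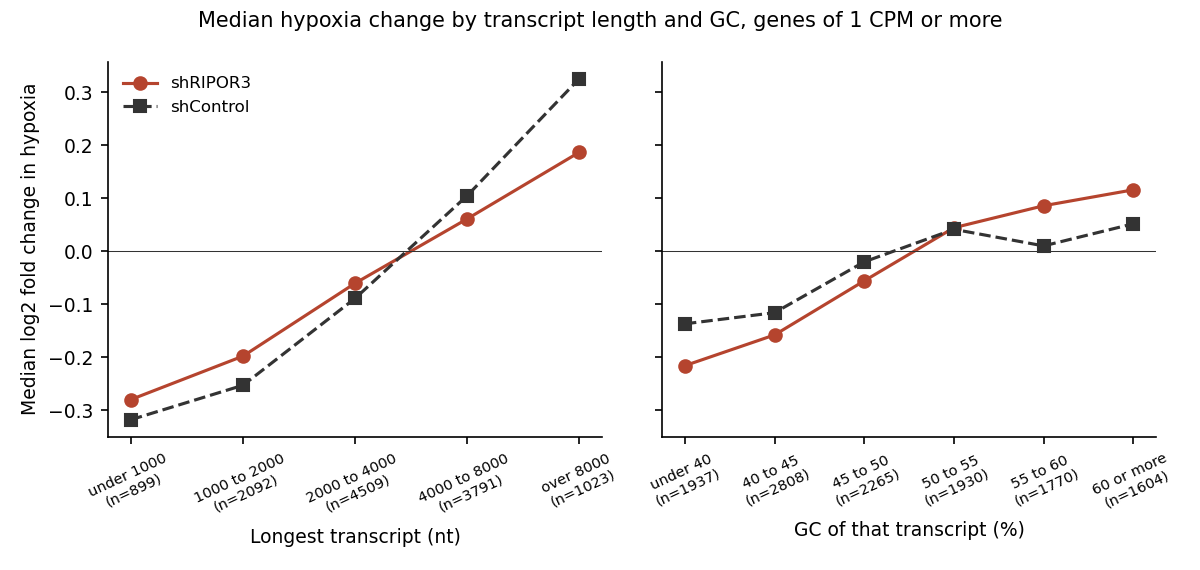
Median log2 fold change of hypoxia over normoxia (y axis) by class of transcript length and of GC percent (x axes) in shRIPOR3 and shControl. The shRIPOR3 medians rise from -0.28 to 0.19 by length and from -0.22 to 0.12 by GC content, and the shControl medians rise by length and dip from 0.041 to 0.010 between the GC classes of 50 to 55% and 55 to 60%.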

How the data were processed

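RNA of 12 samples was sequenced with a stranded mRNA kit from 2 µg of total RNA, per the labels' protocols. The authors deposited 1 table of raw read counts per gene symbol; fastp 0.23.4, STAR 2.5.3a, featureCounts and build GRCh38 are named in the submitters' processing notes, while no source used here gives the annotation or the strand setting. Of the 24641 symbols, 24 had been turned into dates (0.2% of counts) and 8 had no count. Counts were fitted as deposited with edgeR 4.0.16 in R 4.3.3 (quasi-likelihood, TMM factors, filterByExpr, 1 coefficient per group over all 12 libraries), and p-values were adjusted by Benjamini-Hochberg over all 15648 genes tested, with a threshold of 0.05. The standard error is the log2 fold change fitted without edgeR's prior count, divided by the square root of F. The log2 fold changes given here include that prior count. CPM values use TMM-scaled library sizes. Scarce genes have exact 95% intervals of a ratio of counts, relative to TMM-scaled library sizes or, for RIPOR3, to library totals. The biological coefficient of variation was 3.75%, and the scripts were tested on simulated data, where the share of false calls lay above the threshold and small changes were recovered less often than large ones.
Gene lengths, types and positions come from GENCODE 29 and promoters from RefSeq GRCh38.p14. The genes named are RIPOR3, METTL3, HIF1A and EPAS1, and the 15 largest called increases and decreases with at least 5 CPM and no overlap. Also named are the lead members of each list and up to 5 with the smallest p. The 8 largest called differences between hairpins each way were taken among genes with at least 5 CPM in their highest group. FAM162A, HMGCS1, DUSP1, SLC16A1, HSPA1A, HSPA1B, TFPI and MSMO1 were chosen after their values were seen. The members and gene lists were chosen with earlier results of these data known. Same-numbered libraries did not deviate together (correlations of -0.0194 to -0.00271 over 3 pairs). Alternatives were DESeq2 1.42.0, other scaling factors, other filters, a replicate block, thinning to the smallest total, a threshold of 0.01, the 6 shRIPOR3 libraries alone, leaving out each library and, added after the data were seen, an offset for length and GC content. Values of a few list members are not reported here.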

Additional observations from a re-analysis of the deposited data

Results flagged for a closer look

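The change in hypoxia differed between hairpins for 3624 genes by edgeR's interaction term. Given here are the largest such differences among genes with at least 5 CPM in their highest group, as log2 values, shRIPOR3 minus shControl. Scarcer genes, some with larger differences, were left out. More negative in shRIPOR3 were ANGPTL4 at -2.08, AL365181.3 at -1.95, MAP3K7CL at -1.89, LOX at -1.88, TCAF2 at -1.86, IGFBP3 at -1.78, LINC01293 at -1.70 and HIF1A-AS2 at -1.57. The TCAF2 difference between hairpins was not called without normoxic shRIPOR3 replicate 3 (edgeR adjusted p = 0.0628) and was -2.91 without normoxic shControl replicate 3. HIF1A-AS2, an antisense RNA of the HIF1A locus, had 9.72, 7.96 and 8.05 CPM in normoxia and 12.1, 11.4 and 12 CPM in hypoxia in shRIPOR3.
More positive in shRIPOR3 were AC217777.1 at 3.36, MIR210HG at 2.56, SERF1B at 2.26, ANXA10 at 1.24, CD22 at 1.18, MRM1 at 0.92, NOL6 at 0.89 and SCG2 at 0.88. Several rest on uneven control libraries. AC217777.1 had 8.47, 12.9 and 1.58 CPM in normoxic shControl libraries, and SERF1B, which has a near-identical copy, had 23, 79.6 and 8.52 CPM there. The SERF1B difference between hairpins was 1.17 without normoxic shControl replicate 2. CD22 had 15.5, 11.9 and 13 CPM in normoxia and 15.1, 15.3 and 13.9 CPM in hypoxia in shRIPOR3 and fell by 1.03 in shControl.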

How the results depend on the processing

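Without scaling factors, on library totals, 3159 genes were lower, 772 at least 2-fold higher and 23 at least 2-fold lower. At least 2-fold decreases numbered 64 with no filter, 7 with a filter of 1 CPM in 3 libraries (with 316 such increases) and 24 with the length and GC offset. At a threshold of 0.01 the difference between hairpins was called for 2185 genes, 1024 more positive and 1161 more negative. Leaving out 1 library gave 7861 to 8330 called genes, 3515 to 3777 higher, 4346 to 4631 lower, 495 to 553 at least 2-fold higher and 42 to 55 at least 2-fold lower, over the 6 shRIPOR3 libraries, and 2994 to 3730 differences, 1409 to 2219 more positive and 1394 to 1853 more negative, over all 12. With the replicate number as a block 8664 genes were called, and the block changed no call of a named gene; the numbers do not pair the libraries. DESeq2 called 7894 genes, 7872 of them shared, and of 404 named genes 397 kept their call, 6 lost it and 1 gained it, with no called gene changing direction. Signs reversed with the offset for ITGA3 (-0.012), PSAT1 (0.16), SCG2 (0.0074), SLC4A2 (-0.10), TNFAIP2 (-0.029), TSPAN14 (-0.17), FAM162A (0.21) and MSMO1 (0.062), and with library totals for FAM162A (0.11); the cause was not tested. The median standard error was 0.352 for genes below 1 CPM, of which 17.7% were called, and 0.0395 above 100 CPM, where 82.2% were.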
